A study of Mus musculus with 11 samples.

Results

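A set of 10 genes of serine synthesis and folate-borne carbon transfer were followed in mouse CD8+ T cells: Phgdh, Psat1, Psph, Shmt1, Shmt2, Mthfd1, Mthfd1l, Mthfd2, Aldh1l2 and Pycr1. They were taken by name, with earlier results of these data known, and all were found among 55414 genes of the count table. The cells were OT-I CD8+ T cells, whose transgenic T cell receptor recognises a peptide of ovalbumin. RNA was taken at 12 h from 3 groups of libraries. Torin libraries (n = 3, numbered 1, 3 and 4) came from cells stimulated with N4, the ovalbumin peptide, in the presence of Torin, an inhibitor of the kinase mTOR. Stimulated libraries (n = 4) came from cells given N4 and DMSO, the solvent, and naive libraries (n = 4) from untreated cells of the same genotype. Separate mice are not stated in the labels, and p-values therefore rest on a library-to-library spread that may be technical. Sex, age and Torin dose were not given in the sources used here.

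Serine is made from the glycolytic intermediate 3-phosphoglycerate by PHGDH, PSAT1 and PSPH in succession. The hydroxymethyltransferases SHMT1, in the cytosol, and SHMT2, in mitochondria, then split serine into glycine and a carbon unit carried on folate. MTHFD2 and MTHFD1L turn that unit into formate inside mitochondria, MTHFD1 performs the same conversions in the cytosol, and ALDH1L2 oxidises it to carbon dioxide in mitochondria. PYCR1 makes proline in mitochondria and is often listed with these enzymes because the transcription factor ATF4 controls many of them. T cells that leave quiescence need carbon units for purine and thymidylate synthesis.

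The starts of Psph, Phgdh and Pycr1, the genes with the largest fold differences between Torin and stimulated cells once Aldh1l2 is set aside, are printed here (the difference of Pycr1 did not pass the test), since members that moved together invite a look at their promoters. Sequences are from RefSeq on GRCm38.p6, run 5′ to 3′ from 250 bases before to 50 bases after the start, and are in lower case. Capitals mark a match to TGATGNAA, the core of the element bound by C/EBP and ATF proteins.
Phgdh, chr3:98339920-98340219, minus strand: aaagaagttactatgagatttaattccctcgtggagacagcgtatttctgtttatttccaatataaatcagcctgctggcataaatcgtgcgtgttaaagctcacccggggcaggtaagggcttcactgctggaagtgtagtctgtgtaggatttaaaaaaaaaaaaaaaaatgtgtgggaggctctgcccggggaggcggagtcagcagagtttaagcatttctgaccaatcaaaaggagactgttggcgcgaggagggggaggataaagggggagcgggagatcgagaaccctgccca
Psph, chr5:129787204-129787503, minus strand: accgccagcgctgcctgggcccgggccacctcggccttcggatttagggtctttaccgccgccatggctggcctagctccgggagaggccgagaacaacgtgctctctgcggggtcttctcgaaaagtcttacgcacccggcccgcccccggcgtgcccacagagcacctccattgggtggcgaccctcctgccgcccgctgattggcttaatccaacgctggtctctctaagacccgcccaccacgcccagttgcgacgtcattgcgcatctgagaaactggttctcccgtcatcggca
Pycr1, chr11:120643699-120643998, minus strand: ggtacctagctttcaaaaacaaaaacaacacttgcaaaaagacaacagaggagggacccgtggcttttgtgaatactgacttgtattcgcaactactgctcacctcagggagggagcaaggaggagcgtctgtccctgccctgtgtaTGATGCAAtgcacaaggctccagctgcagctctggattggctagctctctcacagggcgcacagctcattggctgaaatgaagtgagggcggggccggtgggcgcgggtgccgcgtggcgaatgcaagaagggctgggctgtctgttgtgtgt

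The match in Pycr1 reads TGATGCAA and begins 103 bases before the start. TGATGNAA was searched on both strands together with CACGTG, the E-box, and TGACGTCA, the cyclic AMP response element. Of 32851 RefSeq promoter windows of the same 300 bases, 3.97% held TGATGNAA, 7.15% held CACGTG and 1.79% held TGACGTCA. Among 10 windows of 9 members, Psat1 having 2 windows, the match in Pycr1 was the only 1 for any of these motifs. Aldh1l2 had no promoter window and was not searched. The median GC content was 57.4% in the member windows and 52.7% over all windows.

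Estimated counts summed to between 241865667 and 405884097 per library, more than usual read numbers, and no interval was computed from counting. All 7 T cell markers examined (Cd3d, Cd3e, Cd3g, Cd8a, Cd8b1, Thy1 and Lck) exceeded 1 CPM (counts scaled to a common, TMM-adjusted library total) in each library. Their summed level was 2990 to 3130 CPM in Torin, 1900 to 2400 CPM in stimulated and 4680 to 5860 CPM in naive libraries. Several libraries carried transcripts of other cell types. The 7 B cell markers summed to 13200 CPM in Torin 4, 14400 CPM in stimulated 4 and 47400 CPM in naive 4, and to at most 366 CPM elsewhere. The 7 granulocyte markers summed to 2090 CPM in stimulated 2 and 8670 CPM in naive 2, and to at most 152 CPM elsewhere, and the 7 monocyte and macrophage markers to 2110 CPM in naive 2 and at most 212 CPM elsewhere. In bulk samples, fewer cells of a type and less RNA per cell cannot be told apart.

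The comparison of Torin with stimulated cells asked what mTOR inhibition changed during activation. The genes of serine synthesis fell with Torin by 5.41-fold to 7.93-fold, and a mitochondrial formate gene, Mthfd1l, fell by less. By edgeR's quasi-likelihood test with Benjamini-Hochberg adjustment over all genes, 4 of the 10 members fell and 0 rose. Of all 22238 genes tested 2.3% fell and 2.32% rose. All 10 fitted changes of the members were negative, so none rose at an unadjusted p below 0.05 or by DESeq2. The median log2 change was -1.98 over the members, -1.53 over the 9 other than Aldh1l2, whose fitted change has no measured size, and -0.02 over all genes tested. In the Torin libraries the 9 members other than Aldh1l2 stood below every stimulated library, as did 10.1% of all genes tested. Aldh1l2 did so too, but from a few counts in stimulated 2 and 4. With library totals in place of TMM scaling Shmt1 and Mthfd1 overlapped and the other 7 of the 9 did not, against 6.77% of all genes. All 10 members passed the filter on low counts. By DESeq2, 8 members fell, Shmt2, Mthfd2, Pycr1 and Aldh1l2 being added, against 7.97% of all genes. Fitting the Torin and stimulated libraries without the naive ones gave 7, against 2.56% of all genes. A block on replicate number ended the call of Mthfd1l (-0.87, adjusted p = 0.0567) and changed no other member's call. Scaling by library totals left 2, Phgdh and Psph, against 1.55%. With that scaling 67.6% of all calls were higher in Torin, against 50.1% with TMM. The same pair remained without the number 4 libraries, which held B cell transcripts (0.143% of all genes), and without the number 2 libraries, which held granulocyte transcripts (0.861%).

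The comparison of stimulated with naive cells asked what N4 changed. All members other than Aldh1l2 rose, by 3.82-fold to 15.5-fold. Of the 10 members 9 rose and 0 fell, by edgeR and by DESeq2, and the fitted change of each was positive. Of all genes tested 19.2% rose and 20.2% fell. The median log2 change was 3.36 over the 9 members other than Aldh1l2 and -0.22 over all genes. The 9 members stood above every naive library in every stimulated library, as did 19.8% of all genes tested. Torin cells were also set beside naive cells. There 6 of the 10 members rose and 0 fell by edgeR, by DESeq2 and, for falls, at an unadjusted p below 0.05. Of all genes 16.4% rose and 15.8% fell. The 5 members Shmt1, Shmt2, Mthfd1, Mthfd1l and Mthfd2 stood above every naive library in each Torin library, as did 21.1% of all genes tested. These comparisons share libraries, and their values are given side by side.

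**Figure D1:**
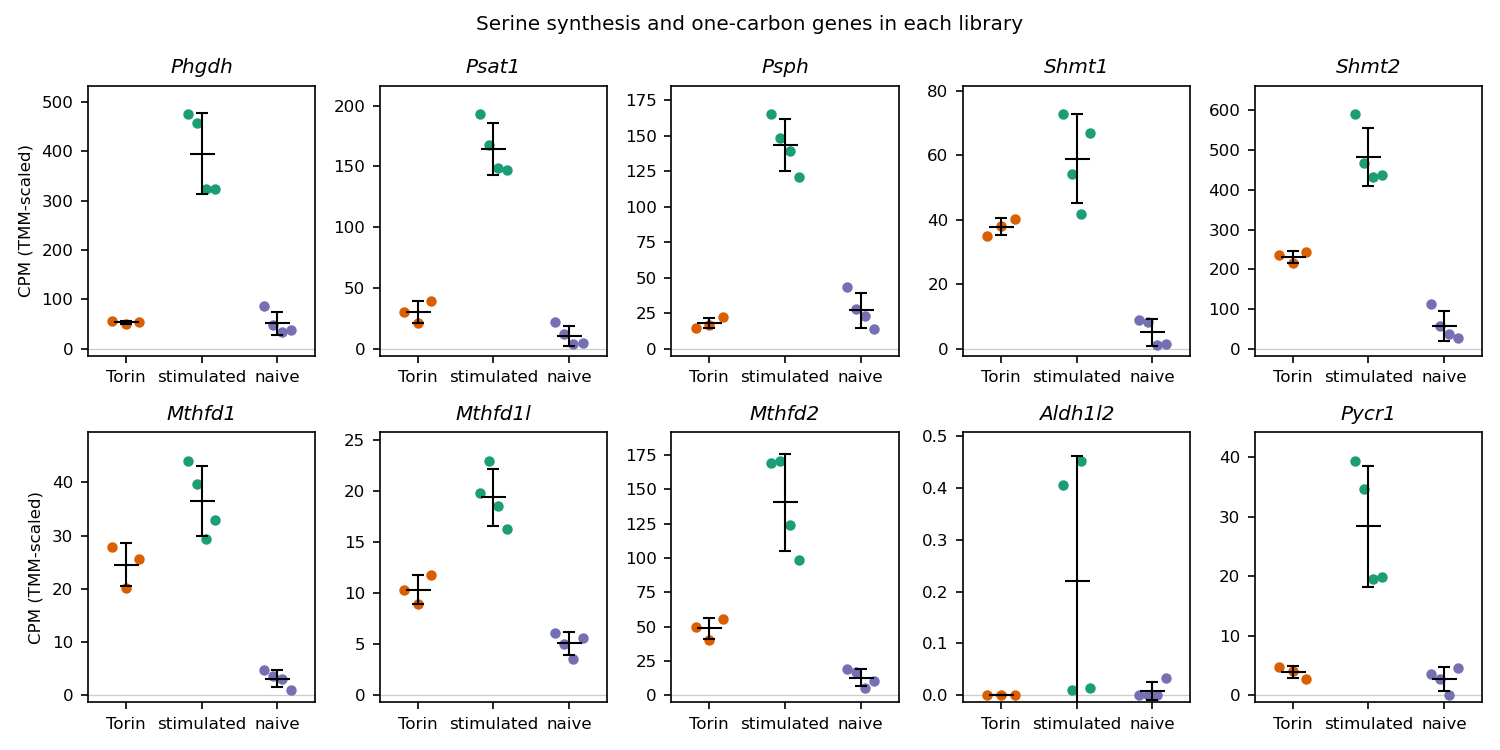
Level of each member in CPM after TMM scaling (y axis, 1 scale per gene) in Torin (n = 3), stimulated (n = 4) and naive (n = 4) libraries. Points are libraries, bars the mean ± SD; Phgdh, Psph and Pycr1 lie near the naive level with Torin, while Shmt1, Shmt2, Mthfd1 and Mthfd2 lie between the naive and stimulated levels.

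Phgdh, the first enzyme of serine synthesis, had 56.5, 49.9 and 54.6 CPM in Torin 1, 3 and 4, against 475, 457, 324 and 324 CPM in stimulated 1 to 4. In naive 1 to 4 it had 85.8, 48.0, 34.3 and 37.8 CPM. The Torin libraries lay within the range of the naive ones and far below the stimulated ones. Phgdh fell with Torin relative to stimulated cells (log2 change -2.88, SE 0.33, adjusted p = 0.0037) and rose in stimulated relative to naive cells (2.94, SE 0.29, adjusted p = 2.7e-05). Between Torin and naive cells the log2 difference was 0.06, with a 95% interval of -0.59 to 0.71 (adjusted p = 0.904), and it was -0.32 with library totals alone. Phgdh has 19 close copies in the annotation with at least 90% identity over 200 bases, and reads of the gene and these copies may be exchanged. Together they held at most 4.08 CPM in Torin, 28.6 CPM in stimulated and 5.79 CPM in naive libraries, or 5.30% to 8.18% of the Phgdh level.

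Psat1, the aminotransferase of the next step, had 30.5, 20.9 and 39.6 CPM in Torin 1, 3 and 4, against 193, 168, 149 and 147 CPM in stimulated 1 to 4. The naive libraries 1 to 4 had 22, 12.1, 3.74 and 4.56 CPM. It thus stood lowest in naive 3 and naive 4, and Torin 3 lay just under naive 1. Psat1 had the largest rise of the 9 members that passed in stimulated relative to naive cells (log2 change 3.95, SE 0.54, adjusted p = 0.000169), and it fell with Torin (-2.44, SE 0.56, adjusted p = 0.0361). The fall ended as a call without any 1 of the 3 Torin libraries or stimulated 1, 2 or 4 (log2 changes of -2.65 to -2.23), although the direction held. It ended as well with library totals alone (adjusted p = 0.0577) and without all libraries of number 2 or 4 (adjusted p = 0.0945 and 0.122). The fall passed in 11 of 20 alternatives. Torin cells stood above naive cells by 1.52 (SE 0.51, adjusted p = 0.0428), with overlapping libraries. That call ended without any 1 of 9 libraries: the 3 Torin libraries, stimulated 1, 2 or 4, or naive 2, 3 or 4 (1.23 to 1.72). It also ended with library totals alone (adjusted p = 0.152), with no filter (0.0517) and with stimulated libraries left out of the fit (0.0722). Leaving out all libraries of number 2 or 4 ended it too (adjusted p = 0.0865 and 0.194). It passed in 6 of 20 alternatives.

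Psph, the phosphatase that releases serine, had 15, 16.9 and 22.1 CPM in Torin 1, 3 and 4, against 165, 148, 139 and 121 CPM in stimulated 1 to 4. Its level in naive 1 to 4 was 43.5, 28.3, 22.9 and 13.9 CPM. Its mean with Torin, 18 ± 3.66 CPM, was lower than the naive mean of 27.1 ± 12.4 CPM (SD, n = 3 and 4), with overlapping libraries. Psph fell with Torin relative to stimulated cells (log2 change -2.99, SE 0.35, adjusted p = 0.00377), the largest fold among the members that passed, and rose in stimulated relative to naive cells (2.40, SE 0.30, adjusted p = 0.000108). Between Torin and naive cells the log2 difference was -0.59, with a 95% interval of -1.28 to 0.11 (adjusted p = 0.182). It passed without naive 4 (-0.81, adjusted p = 0.0321).

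The first 452 of the 1733 bases of the leading Psph transcript overlap exons of Cct6a, a chaperonin subunit gene on the opposite strand. The library kit is not stated to keep strand, so reads of these genes cannot be told apart there. Cct6a had 162 ± 20.5 CPM in Torin, 205 ± 16.6 CPM in stimulated and 276 ± 59.9 CPM in naive libraries. Its part in the Psph values was not tested. That leading transcript held 68.9% to 94.7% of Psph counts in Torin, 94.1% to 96.0% in stimulated and 70.3% to 93.3% in naive libraries.

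Shmt2, the mitochondrial hydroxymethyltransferase, had 235, 215 and 244 CPM in Torin 1, 3 and 4, against 590, 468, 433 and 438 CPM in stimulated 1 to 4. In naive 1 to 4 it had 112, 57.6, 37.7 and 27.2 CPM. The groups did not overlap, and the Torin libraries lay between the other groups. The difference between Torin and stimulated cells, -1.06 (SE 0.39, 95% interval -1.93 to -0.19), did not pass over all genes (adjusted p = 0.161). It passed by DESeq2 (adjusted p = 0.0269), with naive libraries left out of the fit (adjusted p = 0.0135) and without naive 1 (adjusted p = 0.0355). These were 3 of 20 alternatives, and the adjusted p reached 0.385 in the others. Shmt2 rose in Torin relative to naive cells (1.98, SE 0.38, adjusted p = 0.00255) and in stimulated relative to naive cells (3.04, SE 0.38, adjusted p = 0.000106).

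Shmt1, its cytosolic counterpart, had 35.1, 38.2 and 40.2 CPM in Torin 1, 3 and 4, against 72.7, 54.1, 41.7 and 67.0 CPM in stimulated 1 to 4. The naive libraries 1 to 4 had 9.09, 8.33, 1.33 and 1.65 CPM. Stimulated 3 lay just above Torin 4, and naive 3 and 4 had far less than naive 1 and 2. Shmt1 rose in Torin relative to naive cells (log2 change 2.89, SE 0.60, adjusted p = 0.00387), as it did in stimulated relative to naive cells (3.53, SE 0.60, adjusted p = 0.000747). Between Torin and stimulated cells the log2 difference was -0.64, with a 95% interval of -1.95 to 0.67 (adjusted p = 0.624). The last 184 of the 2858 bases of its leading transcript overlap exons of Smcr8 on the opposite strand, which had 1.72 CPM in Torin, 2.12 CPM in stimulated and 2.09 CPM in naive libraries on average.

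Mthfd1, the cytosolic trifunctional enzyme, had 27.9, 20.1 and 25.7 CPM in Torin 1, 3 and 4, against 44.1, 39.7, 29.3 and 33.0 CPM in stimulated 1 to 4. Its level in naive 1 to 4 was 4.78, 3.6, 3.11 and 1.08 CPM. The Torin libraries lay just under the stimulated ones and well above the naive ones. It rose in Torin relative to naive cells by 7.80-fold (log2 change 2.96, SE 0.39, adjusted p = 0.00026) and in stimulated relative to naive cells by 11.6-fold (3.54, SE 0.39, adjusted p = 4.6e-05). Between Torin and stimulated cells the log2 difference was -0.57, with a 95% interval of -1.42 to 0.27 (adjusted p = 0.457).

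Mthfd2, the mitochondrial dehydrogenase and cyclohydrolase, had 49.6, 40.6 and 56.0 CPM in Torin 1, 3 and 4, against 169, 171, 124 and 98.3 CPM in stimulated 1 to 4. In naive 1 to 4 it had 19.2, 17.0, 5.17 and 10.4 CPM. The groups did not overlap, and stimulated 4 was the lowest of its group. The difference between Torin and stimulated cells was -1.53 (SE 0.39, 95% interval -2.40 to -0.66, adjusted p = 0.0541), just outside the threshold. It passed by DESeq2 (adjusted p = 0.000754), with naive libraries left out of the fit (adjusted p = 0.0167), with a mean CPM of at least 5 (adjusted p = 0.0209), with DESeq2 size factors (adjusted p = 0.0477) and without naive 1 (adjusted p = 0.0464) or naive 3 (adjusted p = 0.0198). These were 6 of 20 alternatives, and the adjusted p reached 0.22 in the others. Mthfd2 rose in Torin relative to naive cells (1.91, SE 0.38, adjusted p = 0.00285) and in stimulated relative to naive cells (3.44, SE 0.38, adjusted p = 5.01e-05).

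Mthfd1l, which releases formate in mitochondria, had 10.3, 8.96 and 11.8 CPM in Torin 1, 3 and 4, against 19.8, 23.0, 18.6 and 16.3 CPM in stimulated 1 to 4. The naive libraries 1 to 4 had 6.16, 5.05, 3.54 and 5.59 CPM. The groups did not overlap. Mthfd1l fell with Torin relative to stimulated cells (log2 change -0.91, SE 0.21, adjusted p = 0.0402), and it rose in Torin relative to naive cells (1.03, SE 0.21, adjusted p = 0.00327) and in stimulated relative to naive cells (1.93, SE 0.20, adjusted p = 3.31e-05). Blocking on replicate number ended the call of the fall (-0.87, adjusted p = 0.0567). It also missed the threshold without any 1 of the 3 Torin libraries, stimulated 1, 2 or 4, or naive 2 (-0.99 to -0.81). With no filter (adjusted p = 0.0662) and with library totals alone (adjusted p = 0.113) it missed as well. Leaving out all libraries of number 2 or 4 ended it too (adjusted p = 0.128 and 0.137). The fall passed in 8 of 20 alternatives. The rise in Torin relative to naive cells ended as a call with library totals alone (0.68, adjusted p = 0.0579).

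Pycr1, the mitochondrial proline enzyme, had 4.81, 4.09 and 2.78 CPM in Torin 1, 3 and 4, against 39.4, 34.7, 19.5 and 19.8 CPM in stimulated 1 to 4. Its level in naive 1 to 4 was 3.61, 2.74, 0.0651 and 4.60 CPM. Torin and naive libraries overlapped, and naive 3 stood far below the other naive libraries. Pycr1 rose in stimulated relative to naive cells (log2 change 3.36, SE 0.85, adjusted p = 0.00873). The difference between Torin and stimulated cells was -2.86 (SE 0.93, 95% interval -4.92 to -0.80), a fold close to that of Phgdh, and it did not pass (adjusted p = 0.115). It passed without naive 3 (adjusted p = 0.00742), with naive libraries left out of the fit (adjusted p = 0.00899) and by DESeq2 (adjusted p = 0.0177). These were 3 of 20 alternatives, and the adjusted p reached 0.317 in the others.

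Aldh1l2, the mitochondrial formyltetrahydrofolate dehydrogenase, was barely measured. It was listed at 0 in Torin 1, 3 and 4, at 0.406, 0.0107, 0.452 and 0.0147 CPM in stimulated 1 to 4, and at 0 in naive 1, 2 and 3 with 0.0344 CPM in naive 4. No fold is given for it. Its last 1056 transcript bases overlap exons of D10Wsu102e, a gene on the opposite strand with 15.8 ± 1.81 CPM in Torin, 17.8 ± 1.37 CPM in stimulated and 6.64 ± 1.08 CPM in naive libraries. Aldh1l1, the cytosolic counterpart, had at most 0.543 CPM in Torin, 0.0991 CPM in stimulated and 0.677 CPM in naive libraries.

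**Figure D2:**
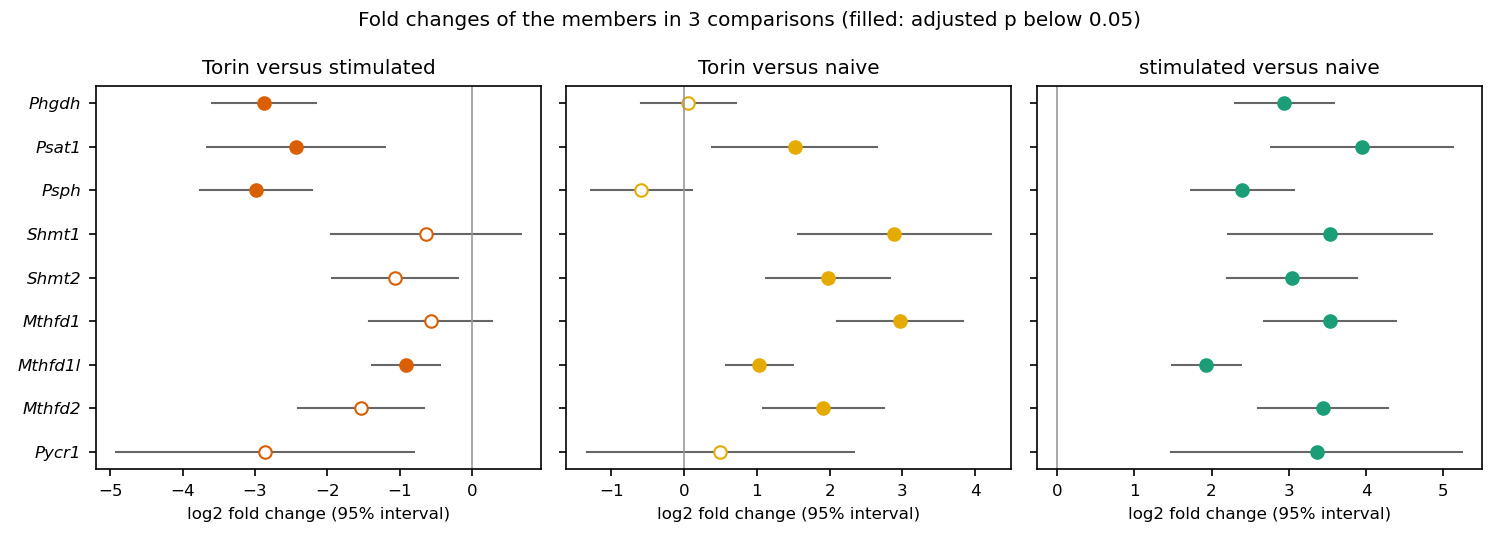
Log2 fold change (x axis) of 9 members, without Aldh1l2, with its 95% interval in Torin versus stimulated, Torin versus naive and stimulated versus naive cells. Filled points have an adjusted p below 0.05; the 3 serine synthesis genes have log2 changes of -2.99 to -2.44 in Torin versus stimulated cells, while Shmt1 and Mthfd1 stand at -0.64 and -0.57.

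For the 9 members other than Aldh1l2 each Torin library lay below each stimulated library. The direction within replicate numbers 1, 3 and 4 was thereby fixed, and only the sizes of the differences are described. The differences of log2(CPM + 0.1), Torin minus stimulated, were -3.07, -2.70 and -2.56 for Phgdh, -2.66, -2.82 and -1.89 for Psat1 and -3.44, -3.03 and -2.44 for Psph. For Shmt2 they were -1.33, -1.01 and -0.84 and for Mthfd2 -1.77, -1.60 and -0.81. For Shmt1 they were -1.05, -0.12 and -0.73, so that number 3 showed almost no difference, and for Mthfd1 they were -0.66, -0.54 and -0.36. For Mthfd1l they were -0.94, -1.05 and -0.45 and for Pycr1 -3.01, -2.22 and -2.79. Number 4, whose libraries held B cell transcripts, showed the smallest difference for Phgdh, Psat1, Psph, Shmt2, Mthfd1, Mthfd1l and Mthfd2. The part of those transcripts was not tested. Naive libraries were uneven. Naive 1 was the highest of its group for 8 of the 10 members and naive 3 the lowest for 6. Myc, a transcription factor gene induced by activation, had 46.2, 40.4, 13.5 and 20.1 CPM in naive 1 to 4, also highest in naive 1 and lowest in naive 3. Its part in the spread of the members was not tested.

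To compare levels between genes, transcript counts were divided by transcript length and scaled to the same total in each library (TPM). In Torin cells Shmt2 stood highest at 85.1 ± 6.42 TPM, above every library of the next, Phgdh at 23.3 ± 1.55 TPM, and Mthfd2 at 21.8 ± 2.67 TPM overlapped with Phgdh. In stimulated cells Shmt2 at 160 ± 48.6 TPM and Phgdh at 156 ± 52.9 TPM did not differ beyond their spread. Psph at 64.0 ± 16.5, Mthfd2 at 53.3 ± 19.0 and Psat1 at 47.3 ± 12.7 TPM followed, with overlap between neighbours but below each library of Phgdh. In naive cells Phgdh at 32.2 ± 21.3 TPM and Shmt2 at 32.1 ± 26.5 TPM led, and all neighbours down to Mthfd1 overlapped. Shmt1, Pycr1, Mthfd1 and Mthfd1l lay between 1.70 and 11.4 TPM in Torin, between 3.96 and 15.7 TPM in stimulated and between 1.22 and 2.41 TPM in naive cells.

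**Figure D3:**
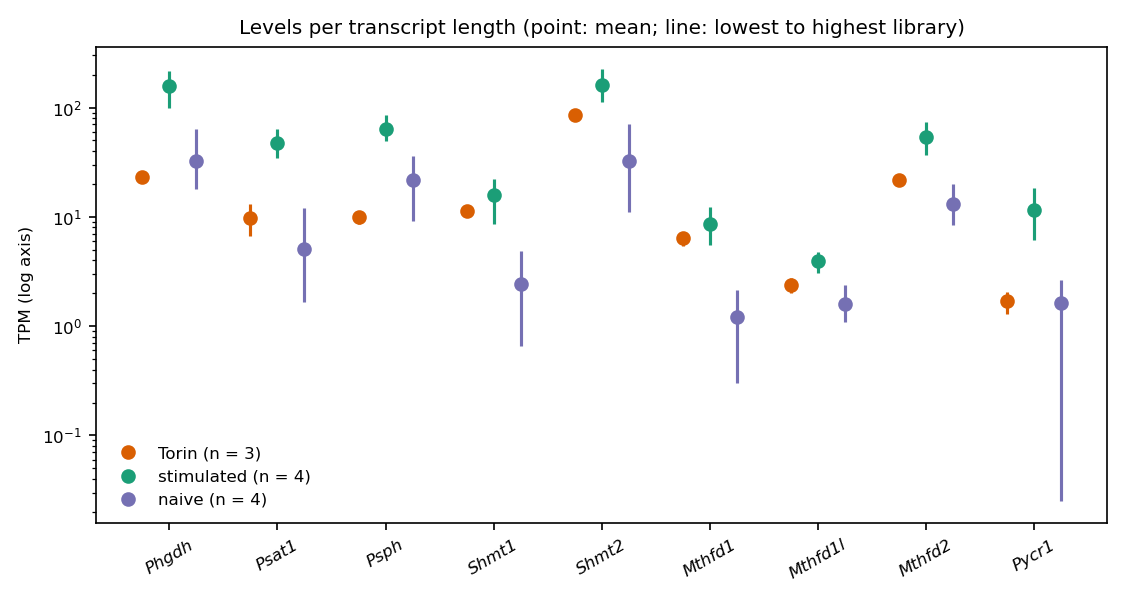
TPM of 9 members on a log axis, in Torin (n = 3), stimulated (n = 4) and naive (n = 4) libraries. Points are means and lines run from the lowest to the highest library; Shmt2 stands apart at 85.1 TPM in Torin cells, whereas Shmt2 and Phgdh are level in stimulated and naive cells.

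The summed level of the members was 172 ± 15 TPM in Torin, 520 ± 161 TPM in stimulated and 111 ± 72.2 TPM in naive cells. Phgdh, Psat1 and Psph together made up 25.1% ± 0.66 of that sum in Torin, 51.4% ± 1.13 in stimulated and 53.6% ± 2.23 in naive cells (SD, n = 3, 4 and 4). Their share ran from 24.7% to 25.9% in Torin, from 50.5% to 53.0% in stimulated and from 51.8% to 56.7% in naive libraries, although the summed level varied from 53.8 to 215 TPM among naive libraries. The TPM ratio of Phgdh, which begins serine synthesis, to Shmt2, which uses serine, was 0.283, 0.274 and 0.266 in Torin 1, 3 and 4. It was 0.953, 1.16, 0.883 and 0.879 in stimulated 1 to 4 and 0.900, 0.980, 1.04 and 1.63 in naive 1 to 4. This share and this ratio are descriptions without a test.

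Ratios of paired genes within a library depend little on the scaling between libraries. They were compared by two-sided exact permutation tests on log2(CPM + 0.1) in a family of 12 tests, from which 3 pairs are given here. The smallest p that these designs allow is 0.0286 for 4 against 4 libraries and 0.0571 for 3 against 4. After Benjamini-Hochberg adjustment the lowest value was 0.114, and no ratio passed. None could have passed, since the adjusted values would stay above the threshold even with all 12 tests at their smallest p. These tests therefore cannot decide whether a ratio differed between groups, and the ratios are given as descriptions.

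The log2 ratio of Mthfd2 to Mthfd1 was 0.99 ± 0.15 in Torin against 1.92 ± 0.24 in stimulated cells, without overlap (exact p = 0.0571, adjusted p = 0.114), and 2.01 ± 1 in naive cells. The log2 ratio of Mthfd1l to Mthfd1 was -0.90 ± 0.22 in stimulated against 0.82 ± 0.97 in naive cells, without overlap (exact p = 0.0286, adjusted p = 0.114), and -1.23 ± 0.17 in Torin cells. The log2 ratio of Shmt2 to Shmt1 was 2.61 ± 0.13 in Torin, 3.05 ± 0.28 in stimulated and 3.77 ± 0.81 in naive cells, and Torin and stimulated libraries overlapped (exact p = 0.114, adjusted p = 0.171).

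**Figure D4:**
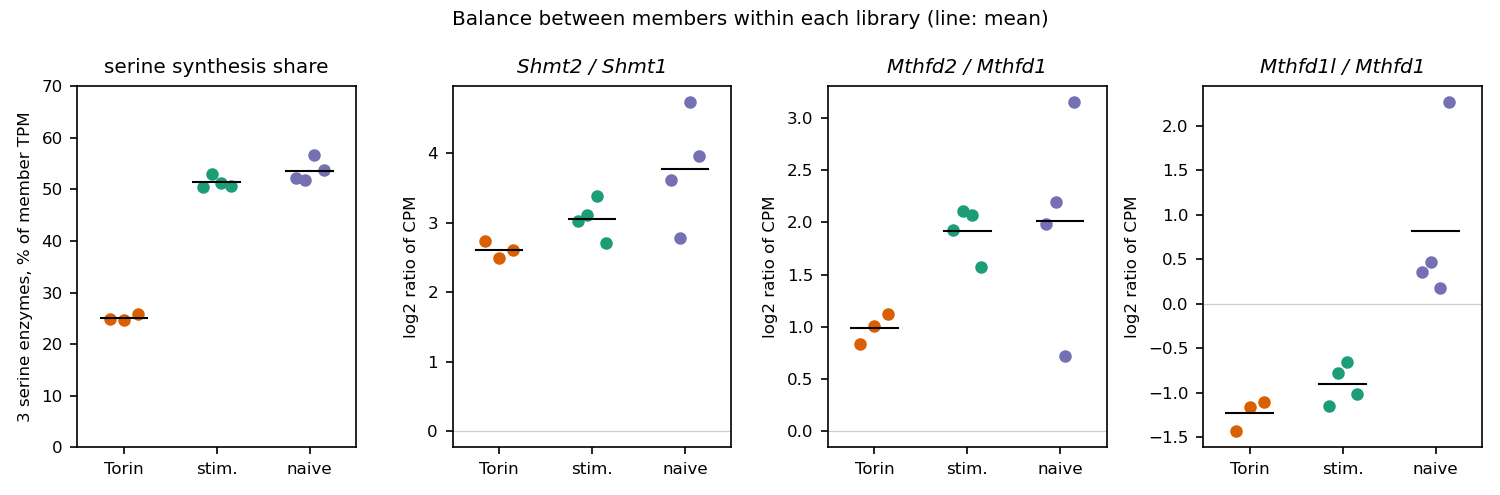
The left panel gives the share of Phgdh, Psat1 and Psph in the summed TPM of the members (%), the other panels the log2 ratio of CPM of 3 gene pairs, for each Torin, stimulated and naive library; lines are means. The share is 24.7% to 25.9% in the Torin libraries and at least 50.5% in the others.

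The transcript table showed which annotated forms carried these counts. A single transcript held at least 99.9% of Phgdh in each library. Shmt2 was divided between a leading transcript, with a mean of 73.5% in Torin, 67.5% in stimulated and 69.7% in naive libraries, and a lesser one with most of the rest. Mthfd1l was divided in the same way, its lesser transcript holding a mean of 37.0% in Torin, 37.5% in stimulated and 29.2% in naive libraries. The shares of Mthfd2 were less even across groups. Its leading transcript of 2085 bases held 94.4% to 97.7% of its counts in Torin, 97.6% to 98.3% in stimulated and 44.9% to 85.2% in naive libraries. A short form of 443 bases, Mthfd2-207, held 2.04% to 5.25% in Torin and 1.31% to 2.31% in stimulated libraries, against 14.4%, 21.1%, 54.9% and 27.3% in naive 1 to 4. Dividing by length gives this short form more weight in TPM, so the naive TPM of Mthfd2, 13.2 ± 5.43, rests in part on it. Other members were uneven in single libraries. In naive 3 the leading transcript held 0% of Pycr1, from 19 counts, and 31.8% of Psat1. A lesser Mthfd1 transcript held 0%, 51.7% and 0% in Torin 1, 3 and 4. In naive 1 the lesser Shmt2 transcript, at 50.1%, exceeded the leading one at 48.9%. All these shares are estimates of the authors' quantification and were not tested.

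Other genes of serine, glycine, folate, methionine, proline and nucleotide metabolism, with the regulators Atf4 and Myc, were read from a list of 54, of which 49 passed the filter. In Torin relative to stimulated cells 1 of the 49 rose and 1 fell, close to the 2.32% of all genes tested that rose and the 2.3% that fell. The median log2 change was -0.18, against -1.53 over the 9 members other than Aldh1l2. The 1 that rose was Sfxn3, a sideroflexin gene related to the mitochondrial serine carrier gene Sfxn1, at 30.8 ± 1.98 CPM in Torin against 8.70 ± 5.37 CPM in stimulated cells (log2 change 1.82, SE 0.36, adjusted p = 0.0213). The 1 that fell was the regulator Atf4, with 99.1, 127 and 112 CPM in Torin 1, 3 and 4 against 223, 237, 237 and 133 CPM in stimulated 1 to 4 (log2 change -0.88, SE 0.21, adjusted p = 0.0433). Its groups did not overlap, although stimulated 4 lay close to Torin 3. With no filter and with library totals alone Atf4 no longer passed. Myc had 433 ± 4.09 CPM in Torin against 257 ± 14.2 CPM in stimulated cells, higher in each Torin library, and did not pass (log2 difference 0.75, adjusted p = 0.248). Cth, which is described with the rises, and Mthfd2l (-0.66, adjusted p = 0.206) stood lower with Torin without passing.

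In stimulated relative to naive cells 22 of the 49 rose and 7 fell, beside 19.2% of all genes tested that rose and 20.2% that fell. The median log2 change was 0.70. The largest rises were those of Cth, the cystathionine cleaving enzyme, and Slc1a4, a transporter of serine and alanine. Cth had 24.0 ± 12.7 CPM in stimulated against 0.794 ± 1.24 CPM in naive cells (log2 change 4.91, SE 1.49, adjusted p = 0.0225), and it stood at 0.441 ± 0.204 CPM with Torin, where its difference from stimulated cells, -5.77, did not pass (adjusted p = 0.0969). Slc1a4 had 9.10 ± 3.69 CPM in stimulated against 0.328 ± 0.333 CPM in naive cells. Slc19a1, the reduced folate carrier, had 187 ± 41.3 CPM in stimulated against 18.1 ± 10.5 CPM in naive cells (3.37, SE 0.37, adjusted p = 4.91e-05), and Myc rose by 8.55-fold. The largest fall was that of Sfxn3, with 8.70 ± 5.37 CPM in stimulated against 77.7 ± 15.5 CPM in naive cells. Sdsl, a serine dehydratase-like gene, had 1.89 ± 1.16 CPM in stimulated against 10.9 ± 5.32 CPM in naive cells, and Serinc3, a serine incorporator gene, had 63.1 ± 15.5 CPM in stimulated against 325 ± 84.4 CPM in naive cells. Ggh, which hydrolyses folate polyglutamates, fell to 6.56 ± 3.62 CPM in stimulated cells, against 22.6 ± 12.2 CPM in naive cells. Mthfd2l, the paralog of Mthfd2, had 3.79 ± 1.03 CPM in stimulated against 5.47 ± 1.16 CPM in naive cells and did not pass (-0.53, adjusted p = 0.116).

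In Torin relative to naive cells 16 of the 49 rose and 9 fell, beside 16.4% of all genes tested that rose and 15.8% that fell. The median log2 change was 0.41, against 1.52 over the 9 members other than Aldh1l2. Myc rose by 14.4-fold, and Slc19a1 had 156 ± 20.2 CPM in Torin against 18.1 ± 10.5 CPM in naive cells (log2 change 3.10, SE 0.38, adjusted p = 0.000179). Gcsh, the lipoyl carrier of the glycine cleavage system, had 49.4 ± 6.14 CPM in Torin against 7.73 ± 4.05 CPM in naive cells, and Mtrr, which reactivates methionine synthase, had 45.8 ± 1.52 CPM in Torin against 7.77 ± 1.54 CPM in naive cells. Sdsl, Serinc3, Ggh and Sfxn3 fell, and so did Mthfd2l, at 2.40 ± 0.454 CPM in Torin against 5.47 ± 1.16 CPM in naive cells (-1.19, SE 0.28, adjusted p = 0.00708).

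**Figure D5:**
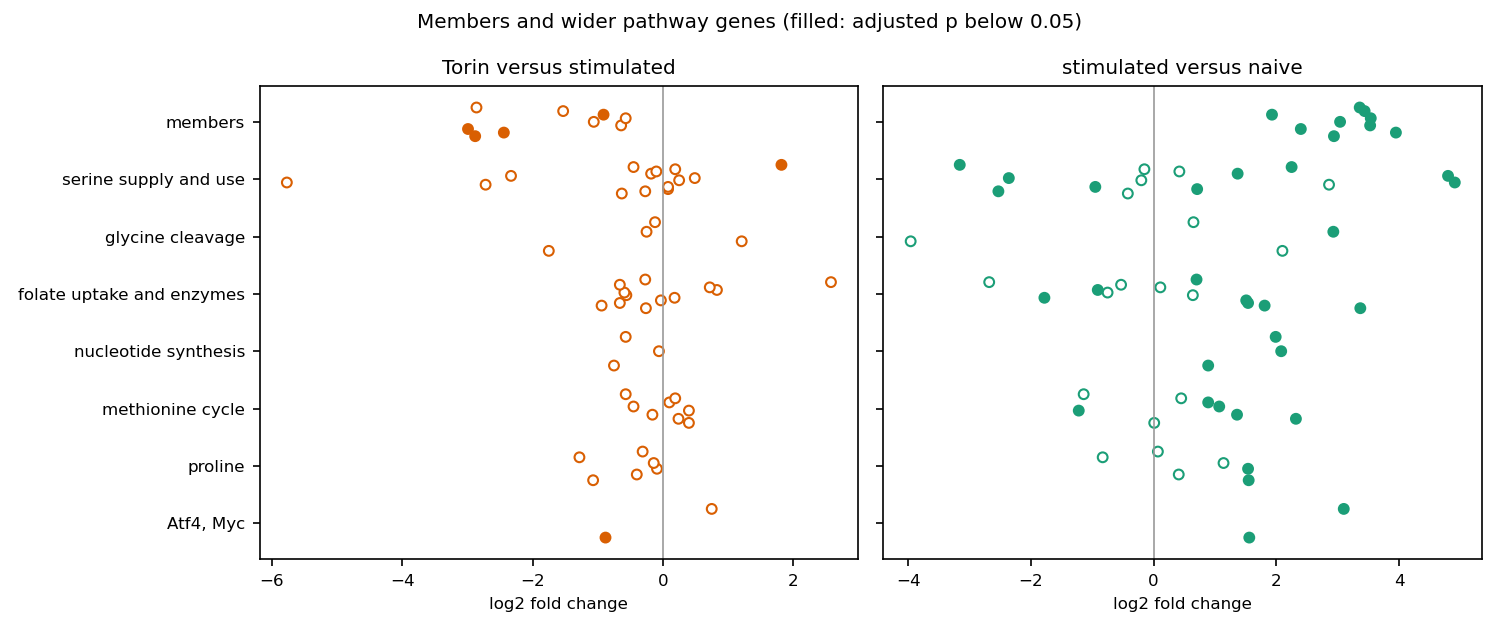
Log2 fold change (x axis) of 9 members, without Aldh1l2, and of 49 other genes by class in Torin versus stimulated (left) and stimulated versus naive cells (right). Filled points have an adjusted p below 0.05 and heights within a class only separate the points; with Torin the filled points outside the members are Sfxn3 at 1.82 and Atf4 at -0.88.

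Most members ran together across libraries. The correlation of log2 CPM across the 11 libraries with the mean profile of the other members was 0.988 for Psat1, 0.978 for Mthfd2, 0.969 for Mthfd1l and 0.939 for Shmt2, and lower for Psph (0.803) and Aldh1l2 (0.553). These libraries fall into 3 groups, and share depth and scaling, so the values take in the differences between groups. Of 5603 other genes with a mean of at least 10 CPM, those most like the mean profile of the members were Lonp1, a mitochondrial protease (r = 0.989 over 11 libraries), Got2, the mitochondrial aspartate aminotransferase (0.985), Nars, which loads asparagine onto tRNA (0.981), Exosc3, an RNA exosome subunit (0.977), and Phf10 (0.976). Hax1 (0.974), Slc7a5, a carrier of large neutral amino acids (0.972), and Hacd2 (0.972) followed. Lonp1 had 21.5 ± 1.62 CPM in Torin, 52.3 ± 8.83 CPM in stimulated and 9.48 ± 2.71 CPM in naive cells. Slc7a5 had 31.1 ± 1.49 CPM in Torin, 90.8 ± 19.4 CPM in stimulated and 9.02 ± 1.83 CPM in naive cells.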

How the data were processed

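Libraries (11, grouped as labelled) were prepared from total RNA with the polyA V4 kit of the SMARTer range for low input, per the labels' protocols. The gene and transcript tables hold estimated counts as deposited by the authors. Per the submitters' processing notes DESeq2 1.30.1, StringTie 2.1.0, STAR 2.7.1a and SAMtools 1.9 were used with R 4.0.5 on build mm39; the role of each was not given in the sources used here. The counts were whole numbers, so none was rounded. Names and transcript lengths came from GENCODE M21 (GRCm38), matched by identifier without version: 52081 of 55414 genes (94.0%) and 138346 of 142435 transcripts (97.1%) matched. The stimulated group is named Control in the gene table. The members and lists were chosen with earlier results of these data known.

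All genes were tested in 1 edgeR 4.0.16 quasi-likelihood model of 3 group means (R 4.3.3, limma 3.58.1), with TMM factors, filterByExpr at a minimum count of 10 (22238 genes) and Benjamini-Hochberg adjustment over all genes, with a threshold of 0.05. SE is the log2 change over the root of F. CPM use TMM-scaled totals. TPM were computed here from deposited transcript counts. Close copies were found with BLAST 2.17.0. From the wider list, per comparison the 4 largest rises and falls past the threshold with at least 5 CPM in the higher group were named, with Mthfd2l, Aldh1l1, Atf4 and Myc; 1 further gene of the list and its ratio are not reported here. The edgeR step was tested on simulated data. Alternatives included DESeq2 1.42.0, other scalings and filters, left-out libraries and a replicate block, and, added after the data were seen, counts of non-overlapping libraries on library totals. Deviations from group means correlated above 0.1 between libraries of 1 number in stimulated and naive pairs (0.16, 0.23, 0.15 and 0.29 for numbers 1 to 4) and in Torin and stimulated pairs (0.11, 0.15 and 0.31 for numbers 1, 3 and 4), but not in each Torin and naive pair (0.08, 0.13 and 0.28). For number 1 in Torin and stimulated pairs the value of 0.11 stood little above the highest with another number, 0.07. The highest values were those of number 4, whose libraries held B cell transcripts, and the part of those transcripts was not tested. By the cutoff of 0.1 alone the numbers pair the libraries in the first 2 comparisons. The main model and the ratio permutations did not use this pairing, and the replicate block was fitted only as an alternative.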

Additional observations from a re-analysis of the deposited data

Results flagged for a closer look

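In 28 groups of 4 libraries examined, 2 held a library far from the rest, where chance gives about 1 in 20 groups. Naive 4 had an Aldh1l2 level of 0.0344 CPM while the other naive libraries were at 0, so that any value above 0 would have stood apart, and it rests on about 12 estimated counts. Naive 4 also had a log2 ratio of Mthfd1l to Mthfd1 of 2.26, against 0.18 to 0.47 in naive 1 to 3. The summed B cell markers were 47400 CPM in naive 4 and at most 366 CPM in the other naive libraries, and their part in either value was not tested.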

How the results depend on the processing

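In stimulated against naive cells 9 or 10 members rose under each of 20 alternatives. In Torin against stimulated cells the 4 that fell became 2 with library totals alone, 8 by DESeq2, 7 with naive libraries left out of the fit and 2 to 6 without single libraries or all libraries of number 2 or 4. Phgdh and Psph passed under all 20 of these alternatives. The count of all genes called there was 1027, and it was 2740 by DESeq2, 656 with no filter and 55 to 1058 with libraries left out. In Torin against naive cells 4 to 6 members rose over the alternatives, 4 with library totals alone, where Psat1 and Mthfd1l were lost. There 0 to 1 members fell with libraries left out, and the log2 difference of Phgdh turned to -0.32 with library totals alone, to -0.09 with a mean CPM of at least 5 and ranged from -0.09 to 0.42 with libraries left out. With library totals alone the wider list had 12 falls in stimulated against naive cells (7 with TMM), 2 rises and 0 falls in Torin against stimulated cells, and 10 rises in Torin against naive cells (16 with TMM). With no filter it had 0 falls in Torin against stimulated cells. The cause of these changes was not tested. With library totals alone the median log2 change of all genes in Torin against stimulated cells was 0.11 in place of -0.02, and 67.6% of calls were higher in place of 50.1%. In stimulated against naive cells these were -0.71 in place of -0.22 and 28.5% in place of 48.7%, and in Torin against naive cells -0.52 in place of -0.18 and 33.4% in place of 50.9%. The Mthfd2 to Mthfd1 difference between stimulated and naive cells was -0.09, 0.19 with a pseudocount of 1 CPM, and -0.52 to 0.29 without single libraries. With RPKM in place of TPM, Psat1 ranked 5 and Psph 6 in Torin cells. The replicate block ended the call of Mthfd1l in Torin against stimulated cells (-0.87) and changed no other member's call. No counting interval was computed from these estimated counts, so depth sets no stated limit.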
